A study of Rattus norvegicus with 8 samples.

Results

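The erythroid miRNAs miR-144 and miR-451 were followed in the striatum of methamphetamine (METH) self-administered rats. The group was set by name as rno-miR-451-5p, rno-miR-451-3p, rno-miR-144-3p, rno-miR-144-5p and rno-miR-486, and 4 of these 5 names matched a row among the 752 mature miRNAs of the count table. A row for miR-486 was not analysed here. Small RNA was sequenced from 4 rats that self-administered saline and 4 rats that self-administered METH, with 1 library per rat. According to the methods of the study, all rats were male Sprague-Dawley rats with a jugular catheter, and both groups went through the same surgery and catheter flushing. All had been trained to press a lever for food before the surgery. The labels give the genotype as WT in both groups, and no age is given. The labelled tissue was the striatum, a forebrain region of movement and reward. Perfusion with saline is described in the methods for immunohistochemistry only, so whether blood was washed out of the sequenced brains is not given in the sources used here. The comparison asked how much of these erythroid miRNAs each striatal library held and whether their levels differed between the groups.

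miR-144 and miR-451 are made from 1 primary transcript that the transcription factor GATA1 switches on in erythroid precursors. Red blood cells lose their nucleus but keep miRNAs, and miR-451 is among the most abundant miRNAs in them, so it is widely used as a sign of blood in tissue and plasma. Most miRNA hairpins are cut by Drosha and then by Dicer. The miR-451 hairpin is too short for Dicer, and the slicer activity of Argonaute2 cuts its stem instead, after which the 3′ end is trimmed. miR-144 represses Dicer during red cell maturation. miR-486 comes from an intron of Ankyrin-1, the gene of a red cell membrane protein.

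The mature sequences are shown because the results turn on the difference between the arms of each hairpin. Capitals mark the seed, bases 2 to 8 from the 5′ end, which pairs with target mRNAs. All 4 sequences were found in RefSeq for the rat assembly GRCr8. The reads had been aligned to another build, rn6.
rno-miR-451-5p: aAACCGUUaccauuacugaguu
rno-miR-451-3p: aUGGUAAUgguucucuugcugcu
rno-miR-144-3p: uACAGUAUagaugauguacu
rno-miR-144-5p: gGAUAUCAucauauacuguaagu

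No other mature rat miRNA among 692 others in the RefSeq table shared any of these 4 seeds. Bases 2 to 7 of miR-144-3p were shared by miR-101a-3p and miR-101b-3p, whose seed is ACAGUAC. Bases 2 to 7 of miR-451-3p were shared by miR-1193-5p. The closest other mature miRNA was 8 edits (substitutions, insertions or deletions) away from each member.

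The hairpins are shown next, with both mature arms in capitals, because the processing of miR-451 depends on its shape. Mir144 lies at chr10:63459397-63459479 and Mir451a at chr10:63459569-63459640 on GRCr8, both on the + strand and separated by 89 bases.
Mir144: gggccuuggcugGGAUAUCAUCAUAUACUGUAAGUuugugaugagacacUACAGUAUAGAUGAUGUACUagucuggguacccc
Mir451a: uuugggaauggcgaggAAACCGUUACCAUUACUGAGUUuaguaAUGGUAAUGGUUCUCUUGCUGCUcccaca

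In the lowest-energy fold from RNAfold, the Mir451a loop held 4 bases, at positions 35 to 38 of the hairpin. miR-451-5p runs from position 17 to position 38, so it takes up the whole loop. The Mir144 loop held 6 bases, at positions 38 to 43, and miR-144-5p ends before it at position 35. Between the arms lay 5 bases in Mir451a and 14 bases in Mir144. Over 263 rat hairpins with both arms in the table the median was 16 bases, and 2 hairpins (0.760%) had 5 or fewer.

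Total counts ranged from 12929302 to 27632443 per library. Neuronal miR-124-3p ranked 1 in 7 libraries and 2 in METH rat 4. METH rat 4 stood apart from the other libraries. It had the highest log2 CPM of the 8 rats for 154 of the 507 miRNAs tested (30.4%) and the lowest for 176 (34.7%). CPM puts the counts of all libraries on one total, after each library total was multiplied by its trimmed mean of M-values (TMM) factor. This factor was 0.959 to 1.15 in the other 7 libraries and 0.766 in METH rat 4. Since this library carries much of what follows, results are also given without it.

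miR-451-5p, the mature strand that Argonaute2 keeps, was the leading member in every rat. Saline rats 1 to 4 gave 13631, 14917, 10961 and 13849 counts. METH rats 1 to 4 gave 6386, 6764, 16012 and 46745 counts. In CPM, the saline rats were at 611, 640, 400 and 541, and the METH rats at 439, 340, 646 and 2807. METH rat 4 was the highest of all rats, METH rat 2 was the lowest, METH rat 1 lay inside the saline range and METH rat 3 lay just above it.

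Saline rats averaged 548 ± 107 CPM (SD, n = 4), whereas METH rats averaged 1058 ± 1173 CPM (SD, n = 4). Without METH rat 4 the METH mean was 475 ± 156 CPM (SD, n = 3), below the saline mean. miR-451-5p ranked 88th to 121st by count in the other 7 libraries and 55th in METH rat 4. Its share of all counts was lowest in METH rat 2, at 0.0345% (95% Wilson interval 0.0336% to 0.0353%), and highest in METH rat 4, at 0.215% (0.213% to 0.217%). These intervals cover counting error only. They take each read as independent, although merging of PCR copies is not stated.

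The group means of this share were 0.0579 ± 0.0148% (SD, n = 4) in saline and 0.0902 ± 0.0840% (SD, n = 4) in METH. The difference of 0.0323 percentage points was smaller than the spread between METH rats (two-sided exact permutation test, p = 0.83, smallest possible p = 0.0286). Without METH rat 4 the difference was -0.00930 percentage points (exact permutation test, p = 0.400). In bulk tissue, more red cells and more miR-451 per red cell cannot be told apart.

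miR-144-3p, the main arm of miR-144, was far less abundant. Counts of 34, 78, 73 and 99 were found in saline rats 1 to 4, and counts of 43, 20, 41 and 152 in METH rats 1 to 4. Saline rats averaged 2.85 ± 1.01 CPM and METH rats 3.69 ± 3.72 CPM (SD, n = 4 each). The group means of log2 CPM had the opposite order, at 1.48 ± 0.57 in saline and 1.44 ± 1.32 in METH. METH rat 4 was again the highest rat, at 9.13 CPM, and METH rat 2 again the lowest, at 1.01 CPM. Without METH rat 4 the METH mean was 1.87 ± 0.99 CPM (SD, n = 3).

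The other arms had at most 40 counts in any rat. Counts of miR-451-3p were 22, 18, 9 and 40 in saline rats and 15, 30, 38 and 21 in METH rats. Its levels were 0.91 ± 0.51 CPM and 1.33 ± 0.24 CPM (SD, n = 4 each), and METH rat 4 lay between METH rats 1 and 2, at 1.26 CPM. miR-144-5p had 7, 8, 18 and 27 counts in saline rats and 4, 3, 11 and 15 in METH rats. It did not pass the low-count filter and was not tested. Its highest rat was saline rat 4, at 1.06 CPM, followed by METH rat 4, at 0.901 CPM. The 3 counts of METH rat 2 are a share of 1.53e-05%, with a 95% Wilson interval from 5.20e-06% to 4.49e-05%. The groups overlapped for all 4 arms.

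**Figure D1:**
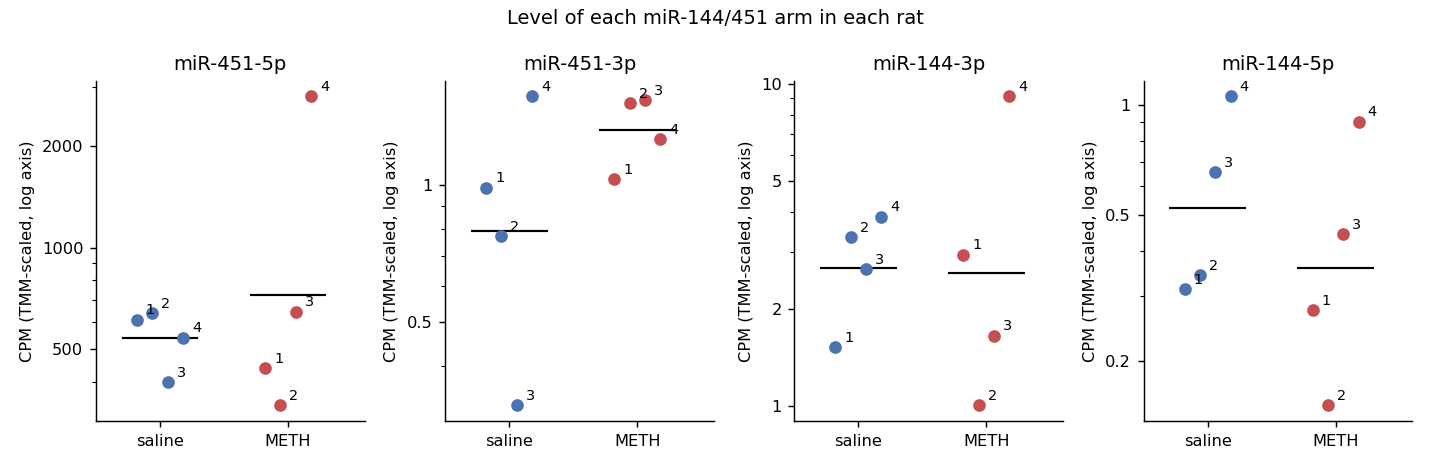
Level of each arm in each rat, in TMM-scaled CPM on a log axis, with saline rats in blue, METH rats in red, the rat number beside each point and a line at the geometric mean of each group. METH rat 4 sits at 2807 CPM for miR-451-5p and 9.13 CPM for miR-144-3p, above all other rats, but within the other rats for miR-451-3p and miR-144-5p.

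In the quasi-likelihood test of edgeR, 0 of the 3 members tested passed the threshold for METH against saline. miR-451-5p had a log2 fold change of 0.95 ± 0.60 (SE) and an adjusted p of 0.818. For miR-451-3p it was 0.55 ± 0.43 (SE) and for miR-144-3p 0.36 ± 0.62 (SE), with adjusted p-values of 0.818 and 0.959. Across the 507 miRNAs, the median fold change was -0.02 on the log2 scale. Members with an adjusted p under 0.05 numbered 0 of 3, against 0 of all 507 miRNAs (0%). At an unadjusted p under 0.05 there were 0 members and 28 of all miRNAs (5.52%). Groups that did not overlap were found for 0 members and for 16 of all miRNAs (3.16%). DESeq2, the edgeR exact test and the edgeR likelihood ratio test called 8, 6 and 7 miRNAs, and 0 members were among them.

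The direction of both main arms rested on METH rat 4. Without this rat, miR-451-5p was at -0.21 ± 0.26 (SE) and miR-144-3p at -0.62 ± 0.43 (SE) on the log2 scale, and edgeR gave each an adjusted p of 0.998. In that fit, 0 of 3 members and 25 of 514 miRNAs (4.86%) had an unadjusted p under 0.05. miR-451-3p kept its direction, at 0.58 ± 0.48 (SE). With any of the other 7 rats left out, the fold change of miR-451-5p was positive, with the highest value of 1.21 without METH rat 1.

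**Figure D2:**
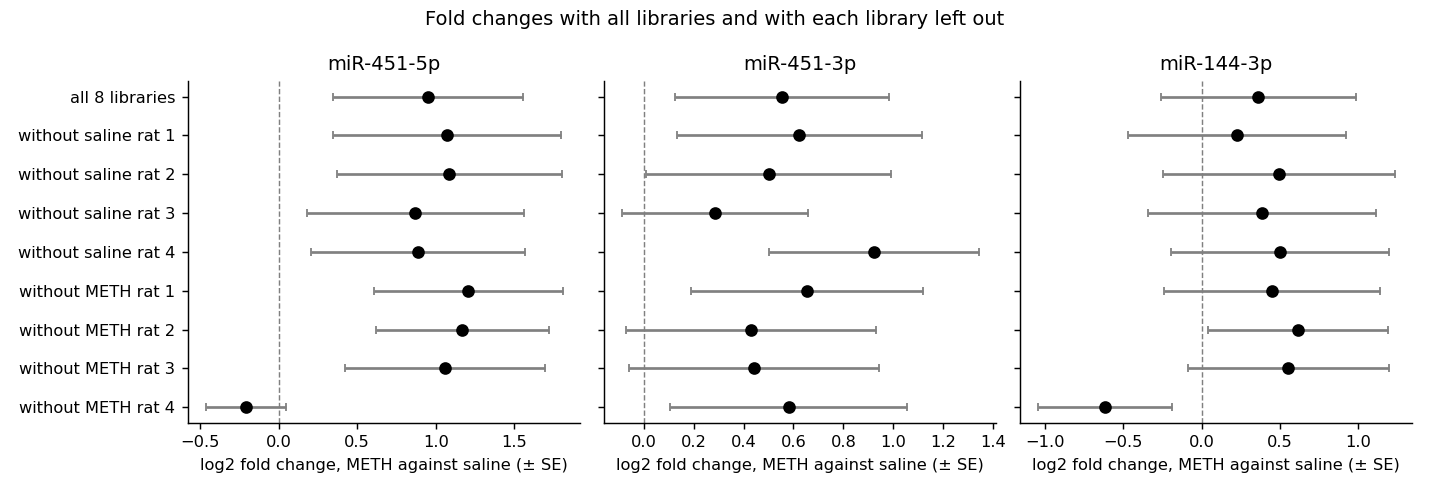
Log2 fold change of METH against saline for the 3 tested arms, from the edgeR fit with all 8 libraries and with each library left out, with bars of 1 SE and a dashed line at 0. For miR-451-5p and miR-144-3p the points lie above 0 in each fit except the one without METH rat 4, at -0.21 and -0.62.

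The within-group SD of log2 CPM was 0.99 for miR-451-5p, 1.02 for miR-144-3p and 0.61 for miR-451-3p, against a median of 0.47 over the 507 miRNAs. A larger SD was seen for 38, 32 and 150 miRNAs, respectively. For miR-451-5p, the SD of log2 CPM was 0.31 in the saline rats and 1.36 in the METH rats, and it was 0.47 in the METH rats without METH rat 4.

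METH rat 4 was then set against the mean of the other 7 rats, a comparison chosen after its values were seen and given without a test. miR-451-5p was 5.43 times the mean of the other 7 rats in CPM and 3.99 times in share of raw counts. miR-144-3p was 3.75 times in CPM and 2.74 times in share of raw counts. By contrast, miR-451-3p was 1.14 times in CPM and 0.850 times in share. On the log2 CPM scale the differences were 2.48 for miR-451-5p, 1.99 for miR-144-3p and 0.30 for miR-451-3p, while the middle of all miRNAs was at -0.17. Only 3 of the 507 miRNAs lay higher in METH rat 4 than miR-451-5p by this measure, and 7 lay higher than miR-144-3p. The spread of all miRNAs in this library was wide, with a 5th percentile of -1.95 and a 95th percentile of 1.59.

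The miR-101 pair, which shares bases 2 to 7 with miR-144-3p, was low in this rat. miR-101a-3p was at 24.7 CPM in METH rat 4, against 30.7 to 143 CPM in the saline rats. miR-101b-3p was at 78.4 CPM, against 102 to 201 CPM. Neither passed the edgeR test between the groups, with log2 fold changes of -0.37 ± 0.57 (SE) and -0.05 ± 0.34 (SE) and adjusted p-values of 0.939 and 0.985. The fold changes were -0.07 ± 0.52 (SE) and 0.20 ± 0.24 (SE) without METH rat 4. miR-1193-5p, which shares bases 2 to 7 with miR-451-3p, was highest in METH rat 4, at 0.600 CPM, but the saline rats reached 0.583 CPM. At such levels this order rests on few counts.

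**Figure D3:**
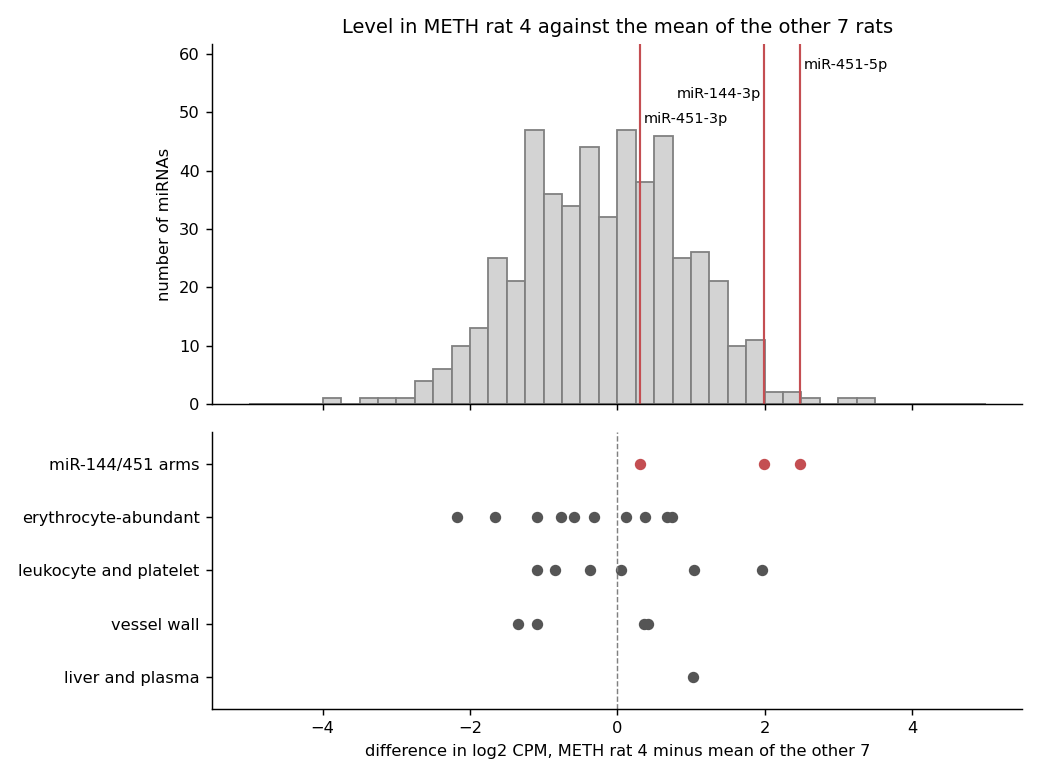
Difference in log2 CPM between METH rat 4 and the mean of the other 7 rats, as a histogram of the 507 tested miRNAs with the 3 tested arms marked in red (top), and by list with 1 point per miRNA (bottom). miR-451-5p and miR-144-3p lie at 2.48 and 1.99, in the upper tail, while the lists spread to both sides of 0 except the single tested miRNA of the liver and plasma list.

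Ratios between members were compared within each library, where the scaling of libraries plays no part. The mature sequences are 20 to 23 bases long, so counts were set side by side without a length term, and how efficiently each one is captured in a library was not measured. miR-451-5p had between 139 and 395 counts for each count of miR-144-3p. The ratio was 395, 190, 149 and 139 in saline rats 1 to 4 and 147, 330, 386 and 307 in METH rats 1 to 4. METH rat 4 lay within the range of the others, so both arms were high together in that rat. The mean log2 ratio was 7.63 ± 0.69 (SD, n = 4) in saline and 8.10 ± 0.62 (SD, n = 4) in METH (exact permutation test, p = 0.429, adjusted p = 0.643 over 3 ratios).

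The arms of 1 hairpin were compared in the same way. miR-451-5p exceeded miR-451-3p by 342 to 1154 times in saline rats and by 222 to 2174 times in METH rats. The value of 2174 belonged to METH rat 4, and the other METH rats were between 222 and 416. The mean log2 ratio was 9.37 ± 0.74 in saline and 9.07 ± 1.41 in METH (SD, n = 4 each, exact permutation test, p = 0.714, adjusted p = 0.714). The METH mean without METH rat 4 was 8.39 ± 0.52 (SD, n = 3), and the difference from saline moved from -0.31 to -0.98 (exact permutation test, adjusted p = 0.343). miR-144-3p exceeded miR-144-5p by only 3.61 to 9.84 times across the 8 rats. The mean log2 ratio was 2.31 ± 0.61 in saline and 2.74 ± 0.69 in METH (SD, n = 4 each, exact permutation test, p = 0.371, adjusted p = 0.643). This difference of 0.43 was 0.24 without METH rat 4 and 0.73 without saline rat 2. The arms of miR-144 were thus closer in count than those of miR-451 in all 8 libraries.

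**Figure D4:**
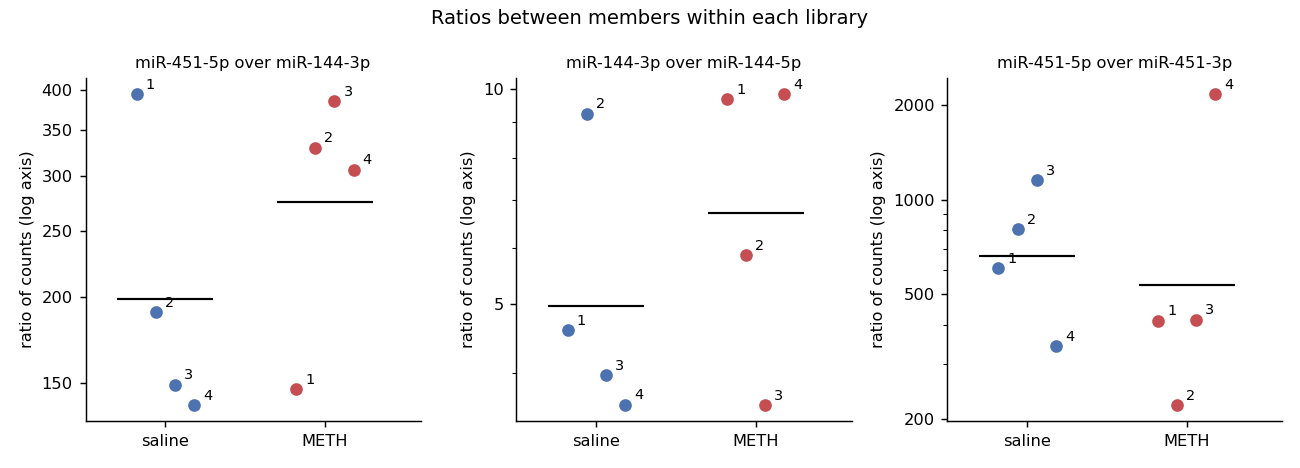
Ratio of counts between pairs of members in each rat on a log axis, after adding 0.5 to each count, with saline in blue, METH in red and a line at the geometric mean of each group. METH rat 4 sits among the other rats for miR-451-5p over miR-144-3p, but highest for miR-451-5p over miR-451-3p, at 2174.

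Other miRNAs known from blood and vessels were described from lists. The first held miRNAs that are abundant in red cells but also made in most tissues, such as miR-16-5p and miR-92a-3p. Of 12 listed, 11 were in the table and 10 were tested, and 0 passed the adjusted threshold. Their median log2 fold change was 0.06, with 7 positive and 3 negative values, against -0.02 for all miRNAs, and the median was -0.02 with library totals as the scaling. In METH rat 4, their median difference from the other 7 rats was -0.45 in log2 CPM. By CPM, 3 were highest and 4 were lowest in this rat. By share of raw counts, miR-93-5p and miR-25-3p were not highest there, and miR-106b-5p was also lowest. Most of the summed level of this list was miR-16-5p. The sum was 5710 to 5943 CPM in saline rats and 3639 to 7293 CPM in METH rats, with 3639 CPM in METH rat 4.

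miR-16-5p, itself abundant in red cells, was lowest in METH rat 4, at 2167 CPM, against 4230 to 5650 CPM in the other rats. miR-363-3p, a member of the miR-106a-363 cluster, had too few counts to be tested. It had 37 counts in METH rat 4, 7 to 18 in the other METH rats and 5 to 10 in the saline rats. Scaled for depth, its groups did not overlap, with 0.215 to 0.403 CPM in saline rats and 0.444 to 2.22 CPM in METH rats. These levels rest on few counts, and the 3.16% of miRNAs without overlap given above is the share among those tested.

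The leukocyte and platelet list held 6 miRNAs, of which 6 were tested and 0 passed. miR-223-3p, a miRNA of myeloid cells and platelets, was at 14.0 CPM in METH rat 4 and at 2.64 to 4.08 CPM in the other 7 rats. edgeR gave it a log2 fold change of 0.97 ± 0.46 (SE) and an adjusted p of 0.818, and 0.26 ± 0.22 (SE) without METH rat 4. miR-142-3p, made in all blood cell lineages, was at 6.72 CPM in METH rat 4, within the range of 5.02 to 26.9 CPM of the other rats. The fold change of miR-142-3p was -0.92 ± 0.50 (SE) on the log2 scale, and its adjusted p was also 0.818. Of the 6, METH rat 4 was highest in CPM for 2 (miR-223-3p and miR-146a-5p) and lowest for 1 (miR-150-5p). By share of raw counts, METH rat 4 was also lowest for miR-142-3p. miR-146a-5p, a miRNA induced by inflammatory signals, was at 299 CPM in METH rat 4 and at 99.1 to 198 CPM in the other rats. miR-150-5p, a lymphocyte miRNA, was at 665 CPM in METH rat 4 and at 1053 to 2066 CPM in the other rats. The summed level of the list, most of which was miR-150-5p, was 1191 to 2245 CPM in saline rats and 993 to 2265 CPM in METH rats, the lowest being METH rat 4. On the log2 scale the fold changes of these 6 had a median of -0.03, which was positive when some single rats were left out.

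The vessel wall list held miR-126a-3p and miR-126a-5p of endothelium and miR-143-3p and miR-145-5p of smooth muscle, and 0 of 4 passed. Their summed level was 10534 to 11197 CPM in saline rats and 10994 to 13865 CPM in METH rats, with the highest value in METH rat 4. This order depended on the TMM scaling. In share of raw counts, each of the 4 was higher in METH rat 1 than in METH rat 4. Within this list, miR-126a-3p and miR-143-3p were highest in CPM in METH rat 4, and miR-126a-5p and miR-145-5p were lowest. In share of raw counts, miR-126a-3p was at 0.810% in METH rat 4, against 0.764% to 1.04% in the other rats. The share of miR-143-3p was 0.240%, against 0.206% to 0.294%. miR-126a-5p and miR-145-5p were lowest by this share too. The groups did not overlap for miR-143-3p, with 2047 to 2329 CPM in saline rats and 2418 to 3139 CPM in METH rats. edgeR put miR-143-3p at 0.39 ± 0.18 (SE) on the log2 scale, and its p of 0.0553 rose to 0.818 after adjustment. It was at 0.34 ± 0.15 (SE) without METH rat 4. miR-122-5p, a liver miRNA that circulates in plasma, had 20 to 26 counts in saline rats and 15 to 38 in METH rats. The fit gave 0.61 ± 0.33 (SE) on the log2 scale for miR-122-5p, and the adjusted p was 0.818. METH rat 4 was the highest rat for miR-122-5p, at 2.28 CPM against at most 1.49 CPM, and without it the fit gave 0.35 ± 0.29 (SE). The part of blood cells or plasma in the level of miR-451-5p was not tested.

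The relation of miR-451-5p to 7 other miRNAs was measured across the 8 rats in log2 CPM. Exact permutation p-values were adjusted over the 7 relations. With miR-144-3p, Pearson's r was 0.77 (p = 0.0342, adjusted p = 0.0873) and Spearman's rho was 0.50 (p = 0.216, adjusted p = 0.599, exact permutation test). Without METH rat 4, r was 0.29 over 7 rats (exact permutation p = 0.509). Without METH rats 2 and 4, which were farthest from the median of miR-451-5p, r was -0.35 over 6 rats. The relation therefore rested on these rats, and it did not pass the adjusted threshold with all 8.

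Relations with the markers of other cells did not pass the adjusted threshold with all 8 rats either. For miR-122-5p, r was 0.84 (exact permutation p = 0.0219, adjusted p = 0.0873) and rho was 0.60 (p = 0.132, adjusted p = 0.599). This r was 0.82 without the 2 farthest rats and 0.43 without METH rat 4. For miR-223-3p, r was 0.83 (exact permutation p = 0.111, adjusted p = 0.130) but rho was -0.10, and r was -0.54 without METH rat 4. For miR-16-5p, r was -0.86 (exact permutation p = 0.0730, adjusted p = 0.114), and it was 0.15 without METH rat 4. For miR-126a-3p, r was 0.77 (exact permutation p = 0.0816, adjusted p = 0.114), and it was -0.18 without METH rat 4. miR-142-3p and neuronal miR-124-3p gave r of -0.35 and -0.66, with adjusted permutation p-values of 0.475 and 0.0873, and r was -0.13 and -0.28 without METH rat 4. For all 7 relations, the adjusted permutation p of Spearman's rho was at least 0.599.

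**Figure D5:**
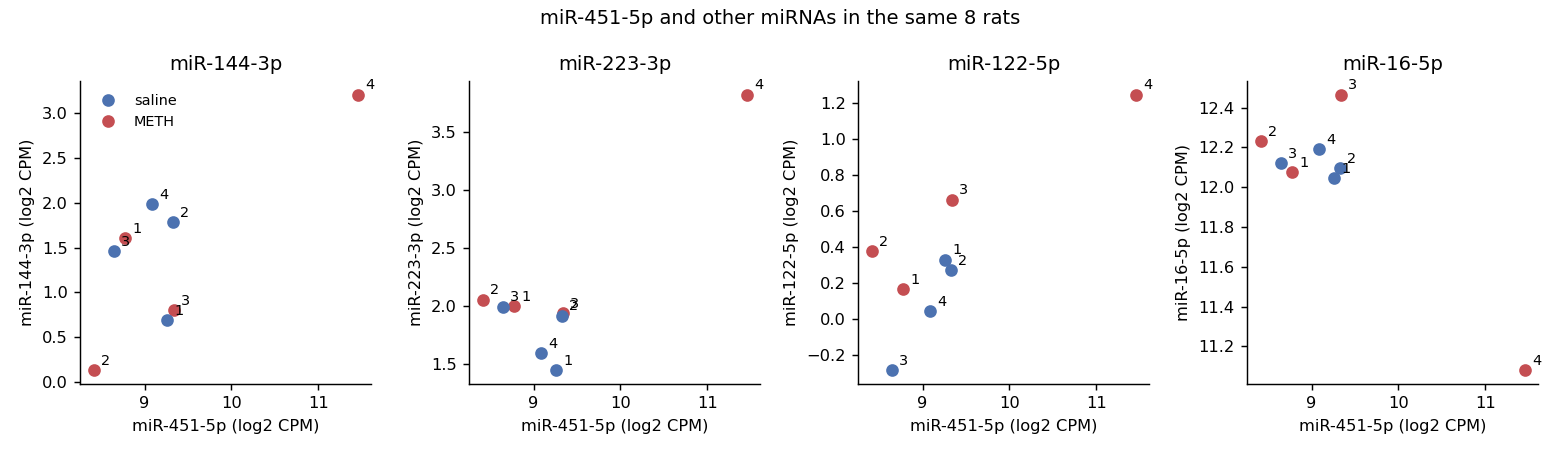
Level of miR-451-5p (x axis) against miR-144-3p, miR-223-3p, miR-122-5p and miR-16-5p (y axes) in log2 CPM, with 1 point per rat, saline in blue, METH in red and the rat number beside each point. METH rat 4 lies far to the right in all 4 panels, at the top for miR-144-3p, miR-223-3p and miR-122-5p and at the bottom for miR-16-5p.

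The tested miRNAs outside the group with the pattern most like miR-451-5p over the 8 rats were found by Pearson's r of log2 CPM and are given as a description. They were miR-181a-5p at 0.95, miR-412-5p at 0.94, miR-342-5p at 0.94, miR-139-3p at 0.93 and miR-93-5p at 0.93. Without METH rat 4, r fell to between 0.56 and 0.74 for these 5. miR-181a-5p was at 97131 CPM in METH rat 4 and at 33169 to 49939 CPM in the other rats. The most opposite patterns were those of miR-381-5p, miR-448-5p, miR-758-3p, miR-543-3p and miR-33-3p, with r from -0.95 to -0.94. Each of these 5 was lowest in METH rat 4, and without it r was -0.84 for miR-381-5p and between -0.72 and -0.54 for the other 4.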

How the data were processed

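The deposited values are raw counts per mature miRNA, which the authors made by trimming adapters with Cutadapt 1.18, aligning single-end reads to rn6 with STAR 2.7.0e and counting with featureCounts (Subread 1.6.4), per the labels and the methods of the study. The library kit adds unique molecular identifiers, but merging of reads by these tags is not stated, nor is the miRNA annotation or the rule for reads with several alignments.

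From the counts, groups were taken from the treatment label. Low-count miRNAs were removed with filterByExpr (minimum count 10), leaving 507 of 752. TMM factors, the quasi-likelihood test of edgeR 4.0.16 with group as the only term and Benjamini-Hochberg adjustment over all 507 gave the fold changes, and the code was tested on simulated data. For each SE, the size of the log2 fold change was divided by the root of its F statistic. Log2 CPM used a prior count of 2, and ratios an offset of 0.5. The replicates were different rats.

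Members, lists and tests were chosen with earlier results of these data known. The text names the members, the miRNAs whose relation to miR-451-5p was measured, and the 5 most like and 5 most unlike it. The miR-101 pair, miR-1193-5p and other listed miRNAs were named after their values were seen. Alternatives were DESeq2 1.42.0, other edgeR tests, scalings and filters, a replicate block and leaving out each library. Hairpins were folded with RNAfold 2.7.2.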

Additional observations from a re-analysis of the deposited data

Results flagged for a closer look

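METH rat 4 was far from the other METH rats in 2 measures. Its share of miR-451-5p was 0.215% of all counts, against 0.0345% to 0.0619% in the other METH rats. In log2 CPM, miR-451-5p did not pass the limit, at 11.5 in METH rat 4 against 8.41 to 9.34. Its level of miR-223-3p was 3.82 log2 CPM, against 1.94 to 2.06 in the other METH rats. In all, 28 groups of 4 rats were examined for a rat apart, and chance alone gives about 1.4 such groups. Both flagged values come from the library that was highest or lowest in log2 CPM for most miRNAs tested, and their cause was not tested.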

How the results depend on the processing

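The count of members past the adjusted threshold was 0 in each setting run. Over all miRNAs the count was 0 except for 8 with DESeq2, 6 with the edgeR exact test and 7 with the edgeR likelihood ratio test, and it ranged from 0 to 5 with 1 library left out, the 5 coming without METH rat 1. DESeq2 gave miR-451-5p a log2 fold change of 1.08 and no p-value, as it does when 1 library is extreme. With each library left out, log2 fold changes ranged from -0.21 to 1.21 for miR-451-5p and from -0.62 to 0.61 for miR-144-3p. The difference in the share of miR-451-5p ranged from -0.00930 to 0.0509 percentage points. The lowest of each of these came without METH rat 4. The difference in the log2 ratio of miR-451-5p to miR-451-3p ranged from -0.98 without METH rat 4 to 0.12 without METH rat 2. For miR-451-5p to miR-144-3p it ranged from 0.30 without saline rat 4 to 0.80 without saline rat 1. Across these fits, r of miR-451-5p ranged from -0.96 to 0.15 with miR-16-5p, from -0.54 to 0.89 with miR-223-3p and from -0.18 to 0.91 with miR-126a-3p, each changing sign without METH rat 4. With miR-122-5p, r reached 0.91 without METH rat 2 (exact permutation test, adjusted p = 0.0208), the 1 relation past the threshold in these fits. Without METH rats 2 and 4, r was -0.35 with miR-144-3p, 0.37 with miR-16-5p, -0.41 with miR-223-3p and -0.72 with miR-126a-3p. With library totals, r with miR-126a-3p was -0.058. The cause of these changes was not tested.

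The rat number as a replicate block gave 0 calls, with log2 fold changes of 0.38 for miR-451-5p (adjusted p = 0.997 in edgeR) and -0.022 for miR-144-3p. The numbers mark no shared animal or day in the labels, and the deviations of rats with the same number correlated at -0.34, -0.15, -0.15 and -0.36. Apart from the list medians, direction and call stayed as given for 76 of 85 values in other settings and for 119 of 128 with 1 rat omitted. The medians of all lists but the liver and plasma list lay close to 0 and changed sign in some settings. With library totals, which put the median of all miRNAs at -0.12, the erythrocyte-abundant list was at -0.02 and the vessel wall list at -0.03. The vessel wall list was at -0.12 without METH rat 1, and the leukocyte and platelet list ranged from -0.07 to 0.11 with 1 rat omitted, being positive without saline rat 2, 3 or 4 or METH rat 3 or 4. Counts of 3 to 27 for miR-144-5p and 9 to 40 for miR-451-3p limit what can be said of these arms. Without the low-count filter, miR-144-5p was at -0.45 ± 0.59 (SE).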
